A study of Mus musculus with 16 samples.

Results

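LIM domains are zinc-binding protein modules, and the 10 genes described here encode LIM-domain proteins of actin stress fibres: Fhl1, Fhl2, Fhl3, Csrp1, Csrp2, Pdlim1, Pdlim5, Pdlim7, Tgfb1i1 and Lpp. They were taken by gene name from a table of raw read counts with 15805 genes, and all 10 were present. RNA had been sequenced from 16 primary explants of epicardium, the outer cell layer of the heart, set in culture on a collagen gel. The mice were of the strain C57BL6, and the sources used here give neither their age and sex nor whether each explant came from another animal. In the treated group, 8 explants received blebbistatin, a small molecule that blocks the motor activity of myosin II, at a labelled dose of 20 whose unit is written in 2 ways and is not settled. The 8 controls received no blebbistatin, and whether they received its solvent is not given. Since separate animals are not stated, p-values measure the spread between these explants.

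Stress fibres are bundles of actin filaments that myosin II pulls taut. Several LIM-domain proteins bind actin filaments or focal adhesions when these are under tension, and some of them also enter the nucleus and act as cofactors of transcription. Many genes of contractile cells are controlled by serum response factor (SRF), whose cofactors MRTF-A and MRTF-B are held back by free actin monomers and whose binding site is the CArG box.

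Total counts ran from 20176386 to 89620195 per library, and all 10 members passed the filter on low counts. The labelled cell type could be checked on 10 epicardial and mesothelial markers, all of them measured and at 0 in none of the libraries. Their summed level was 3287 ± 1120 CPM (counts scaled to the size of the library) in treated against 4447 ± 1263 CPM in control explants (SD, n = 8 each, p = 0.0733 by an exact permutation test, 0.165 adjusted over 9 measures). Lrrn4, Upk1b and Upk3b held most of this sum. Sex was spread unevenly over the groups. Above 10 CPM of Ddx3y, a gene of the Y chromosome, lay 5 of 8 treated but 2 of 8 control libraries, and control 5 held both Ddx3y (56.2 CPM) and Xist (342 CPM).

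Across the 10 genes, Fhl1 fell to 0.307 times the control level, Pdlim7 fell to 0.535 times, and 8 genes did not pass the test. By edgeR's quasi-likelihood test with Benjamini-Hochberg adjustment over 15675 tested genes, 2 of 10 members were called lower and 0 higher. Of all tested genes 0.606% were called, 0.351% lower and 0.255% higher. DESeq2 and limma voom each called 4 members lower, adding Csrp1 and Pdlim5, and 0 higher, where they called 2.7% and 0.721% of all genes in either direction. The log2 fold change (blebbistatin minus control) was negative for 10 of 10 members, against 45.9% of all tested genes, and the median was −0.51 for the members and 0.04 for all genes. An unadjusted p under 0.05 was reached by 6 members in the lower and 0 in the higher direction, against 5.98% and 6.21% of all genes. In no member did the 2 groups of libraries separate fully, as 0.159% of all genes did in the lower and 0.0829% in the higher direction. All 8 treated libraries lay below the control median in 6 of 10 members, against 4.11% of all genes. The members were chosen with earlier results of these data known, so the comparisons with all genes are not an independent test. The explants are tissue pieces, so that fewer cells of one type and less RNA per cell cannot be told apart.

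**Figure D1:**
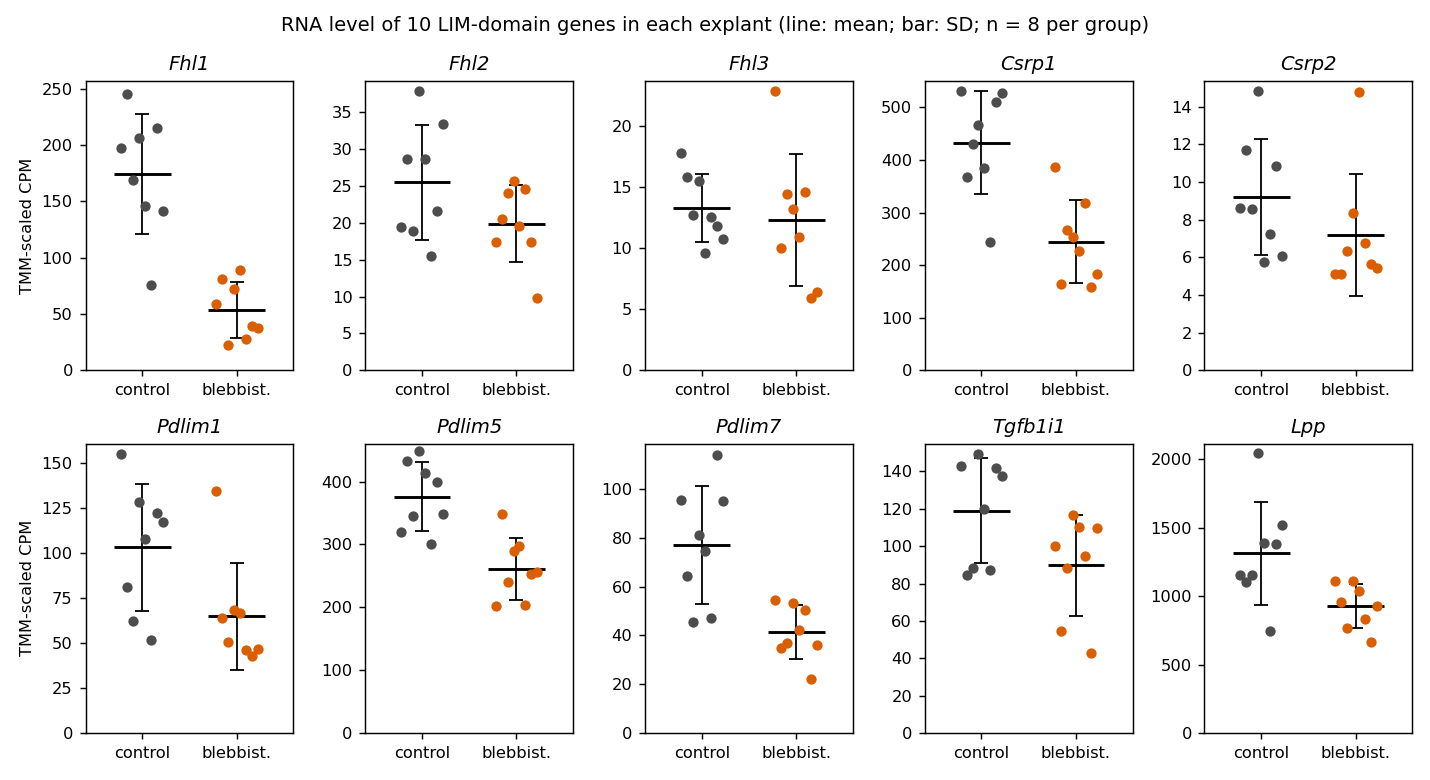
Level of each of the 10 genes in TMM-scaled CPM (vertical axis, from 0) in 8 control (grey) and 8 blebbistatin (orange) explants, each point a library, with mean and SD. Fhl1 shows the widest gap relative to its level, from a mean of 175 CPM in controls to 53.6 CPM with blebbistatin, while the groups of Fhl3 overlap widely.

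The FHL proteins consist of LIM domains and little else, and act as scaffolds between actin, integrins and transcription factors. Fhl1, prominent in muscle, lies on chromosome X (ENSMUSG00000023092, 56731787 to 56793346, plus strand). Its control libraries ranged from 75.9 to 246 CPM with a median of 183 CPM, and the treated libraries from 22.7 to 88.6 CPM with a median of 49.1 CPM. Of the 8 treated libraries 6 lay below every control, and 7 of 8 controls lay above every treated library. The exception was control 6, the lowest control. The mean level was 53.6 ± 25.2 CPM in treated against 175 ± 53.3 CPM in control explants (SD, n = 8 each), which gave a log2 fold change of −1.70 (SE 0.28, 95% interval −2.28 to −1.13, edgeR adjusted p = 0.00679). Fhl1 passed the edgeR test in each of the 16 fits that left out 1 library, with adjusted p-values of 0.00202 to 0.0201.

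Because Fhl1 is X-linked and the sexes were uneven, its values were also taken with sex in view. With a covariate for the mean log2 level of Y chromosome genes in each library Fhl1 passed (log2 fold change −1.61, SE 0.29, edgeR adjusted p = 0.0297), and 21 genes passed in all. Within the libraries with Ddx3y above 10 CPM (5 treated, 2 controls) the log2 fold change of Fhl1 was −1.94 (SE 0.42), and within those at or below it (3 treated, 6 controls) −1.39 (SE 0.35). Neither passed over all genes in these smaller sets (edgeR adjusted p = 0.374 and 0.337), where 2 and 0 genes passed in all. At an unadjusted p, Fhl1 reached 0.00093 and 0.00172 in the same edgeR fits.

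Fhl2, which binds integrins and several transcription factors (ENSMUSG00000008136, chromosome 1, 43123074 to 43196984, minus strand), stood at 19.9 ± 5.20 CPM in treated against 25.5 ± 7.81 CPM in control explants. Its log2 fold change was −0.36 (SE 0.21, 95% interval −0.80 to 0.08, edgeR adjusted p = 0.527), and the ranges of 9.77 to 25.7 CPM and 15.6 to 37.8 CPM overlapped widely. Fhl3, a relative found in skeletal muscle (ENSMUSG00000032643, chromosome 4, 124700701 to 124708611, plus strand), stood at 12.3 ± 5.41 and 13.3 ± 2.79 CPM, with a log2 fold change of −0.12 (SE 0.25, 95% interval −0.63 to 0.40, edgeR adjusted p = 0.886). Treated libraries lay on both sides of its control median, 4 below and 4 above.

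The members of the FHL family thus had different fold changes, and this difference was tested itself, by the log2 ratio of 2 genes within each library, which does not depend on how libraries are scaled. The ratio of Fhl1 to Fhl2 was 2.76 ± 0.52 in controls and 1.33 ± 0.85 with blebbistatin, a difference of −1.43 (SE 0.35, 2-sided exact permutation test over 12870 splits, p = 0.000311, adjusted over 7 pairs 0.00218). For Fhl1 over Fhl3 the log2 ratio was 3.66 ± 0.48 and 2.09 ± 0.95, a difference of −1.57 (SE 0.38, exact permutation test, p = 0.000622, adjusted 0.00218). In both pairs all 8 treated libraries lay below the control median. Fhl2 over Fhl3 did not pass (difference −0.14, SE 0.28, exact permutation test, p = 0.623, adjusted 0.623). Per length of exon, Fhl1 made up 67.7 ± 6.58% of the summed RNA of the 3 FHL genes in controls and 43.8 ± 13.5% with blebbistatin, where single libraries ran from 22.3% to 58.6%.

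**Figure D2:**
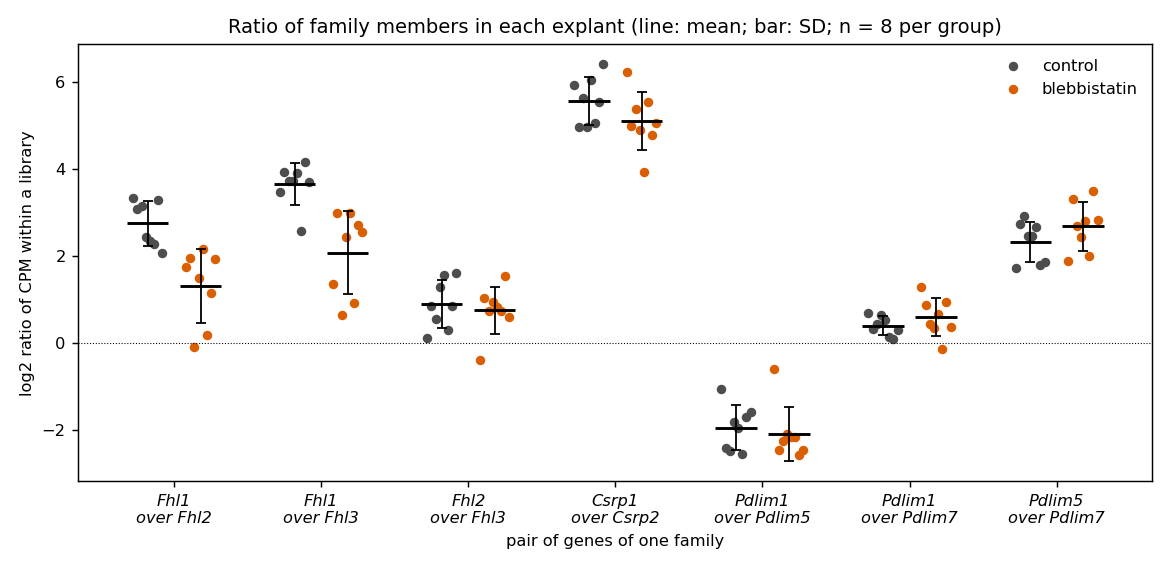
Log2 ratio of the CPM of 2 genes of one family within each library (vertical axis) for 7 pairs, control (grey) and blebbistatin (orange), with mean and SD of 8 libraries. All treated points of the ratios of Fhl1 to Fhl2 and to Fhl3 lie below the control median, with a small overlap of the ranges, while the other 5 pairs overlap widely.

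To set this unequal change beside the promoters of the FHL genes, sequences upstream of their annotated starts are given from RefSeq on build GRCm38.p6, 5′ to 3′ on the strand of the gene. Capitals mark the CArG box (CC, then A or T throughout, then GG, 10 bases in all), and stretches annotated as exon are left out.

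Fhl1, chrX:56779524-56779682, plus strand: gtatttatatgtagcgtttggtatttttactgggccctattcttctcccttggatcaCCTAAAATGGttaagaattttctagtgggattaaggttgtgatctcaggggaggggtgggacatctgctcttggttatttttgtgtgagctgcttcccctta

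Fhl2, chr1:43163962-43164211, minus strand: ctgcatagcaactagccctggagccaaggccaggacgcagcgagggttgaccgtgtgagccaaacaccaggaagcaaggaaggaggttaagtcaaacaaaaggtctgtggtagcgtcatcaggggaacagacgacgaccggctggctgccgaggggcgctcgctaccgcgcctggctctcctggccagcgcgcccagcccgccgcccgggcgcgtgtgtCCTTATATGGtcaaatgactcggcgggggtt

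Fhl3, chr4:124700449-124700698, plus strand: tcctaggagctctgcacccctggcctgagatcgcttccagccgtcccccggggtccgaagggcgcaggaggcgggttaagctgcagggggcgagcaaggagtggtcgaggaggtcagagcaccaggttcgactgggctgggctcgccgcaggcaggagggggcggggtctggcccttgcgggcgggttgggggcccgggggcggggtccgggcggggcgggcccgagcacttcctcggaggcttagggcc

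The box of Fhl1 lay 102 to 93 bases before that start and the box of Fhl2 31 to 22 bases before its start, and no exact box was found in the window of Fhl3. A second window of Fhl1, at chrX:56786277-56786526, held none, and a second window of Fhl2 held CCAAAAAAGG in a part annotated mostly as exon. RefSeq windows of 250 bases before a start were matched for 8 of 10 members, 13 windows in all. A CArG box, read on both strands, was in 3 of the 13, all of Fhl1 and Fhl2, and in 1.47% of the 32851 windows of all genes. The core of the M-CAT element, GGAATG or CATTCC, which binds TEAD factors, was in 1 of the 13 windows, of Lpp, and in 12.64% of all windows. Of the 2 FHL genes with a box, Fhl1 fell and Fhl2 did not pass, and the ratio between them differed between the groups. Whether the boxes bear on the levels of these genes was not tested. These are matches of letters and not measured binding. Both windows of Fhl1 and the window of Fhl2 shown above lie inside the gene bounds given earlier, at internal starts. Counts are per gene, so which starts were used in these explants is not known.

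The CSRP proteins are small LIM proteins that bind alpha-actinin and, in smooth muscle, cooperate with SRF and GATA factors. Csrp1 (ENSMUSG00000026421, chromosome 1, 135720061 to 135752232, plus strand) had 244 to 531 CPM in control libraries with a median of 448 CPM. The treated libraries had 158 to 386 CPM with a median of 240 CPM. Every treated library lay below the control median, and 5 controls lay above every treated library, so that the groups overlapped only in part. The means were 245 ± 79.1 and 433 ± 98.5 CPM, for a log2 fold change of −0.82 (SE 0.19, 95% interval −1.22 to −0.43), and the edgeR adjusted p of 0.0507 just missed the threshold of 0.05. DESeq2 (adjusted p = 0.00268) and limma voom (adjusted p = 0.0379) placed Csrp1 below it, as did edgeR without blebbistatin 1 (0.0194) or control 6 (0.0140). Csrp1 passed in only 7 of 28 alternatives, among them 2 of the 16 fits that left out 1 library. It did not pass with the Y-linked covariate (edgeR adjusted p = 0.123). Over all alternatives the adjusted p ran from 0.00268 to 0.763.

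Csrp2, the relative named for smooth muscle (ENSMUSG00000020186, chromosome 10, 110919789 to 110939622, plus strand), was low, at 7.19 ± 3.25 CPM in treated against 9.21 ± 3.09 CPM in control explants. It had a log2 fold change of −0.36 (SE 0.27, 95% interval −0.92 to 0.20, edgeR adjusted p = 0.646). The ratio of Csrp1 to Csrp2 did not pass (difference −0.47, SE 0.30, exact permutation test, p = 0.146, adjusted 0.333). Per length Csrp1 made up 98.0 ± 0.69% of the RNA of the pair in controls and 97.2 ± 1.29% with blebbistatin.

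PDLIM proteins carry a PDZ domain, which binds alpha-actinin, besides their LIM domains. Pdlim7, also called Enigma (ENSMUSG00000021493, chromosome 13, 55495795 to 55513676, minus strand), had 45.5 to 114 CPM in control libraries with a median of 77.9 CPM. With blebbistatin it had 22.2 to 54.6 CPM with a median of 39.5 CPM. All 8 treated libraries lay below the control median and 5 below every control, and the controls 3 and 6 lay within the treated range. Pdlim7 fell from 77.1 ± 24.2 to 41.3 ± 11.1 CPM, for a log2 fold change of −0.90 (SE 0.21, 95% interval −1.33 to −0.47, edgeR adjusted p = 0.0493). That call stood at the edge of the threshold: with 1 library left out at a time, it held without blebbistatin 1 or 4 or control 3 or 6 and ended in the other 12 of 16 fits. In the 16 fits the adjusted p ran from 0.0203 to 0.117 and the log2 fold change from −0.98 to −0.80. It also ended with the Y-linked covariate (edgeR adjusted p = 0.159) at a log2 fold change of −0.92, and over all alternatives the adjusted p ran from 0.00238 to 0.547.

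Pdlim5, also called ENH, a scaffold for protein kinase C (ENSMUSG00000028273, chromosome 3, 142239590 to 142395696, minus strand), had the narrowest relative spread among controls, a coefficient of variation of 14.5%. Control libraries held 301 to 448 CPM with a median of 374 CPM, and treated libraries 202 to 348 CPM with a median of 255 CPM. Of the treated libraries 7 of 8 lay below every control, and only blebbistatin 2 reached into the control range. The log2 fold change was −0.52 (SE 0.12, 95% interval −0.78 to −0.27, edgeR adjusted p = 0.0555). The DESeq2 and limma voom tests gave Pdlim5 adjusted p-values of 0.00599 and 0.0455. For edgeR without blebbistatin 2, blebbistatin 5 or control 6 they were 0.0214, 0.0452 and 0.0300. Pdlim5 passed in only 7 of 28 alternatives, among them 3 of the 16 fits that left out 1 library. It did not pass with the Y-linked covariate (edgeR adjusted p = 0.159), and the range over all alternatives was 0.00599 to 0.547.

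Pdlim1, or CLP36 (ENSMUSG00000055044, chromosome 19, 40221173 to 40271842, minus strand), stood at 65.0 ± 29.8 CPM in treated against 103 ± 35.3 CPM in control explants. Its log2 fold change was −0.67 (SE 0.25, 95% interval −1.18 to −0.16, edgeR adjusted p = 0.248). One treated library, blebbistatin 1 at 134 CPM, lay above the control median, and the other 7 lay between 42.9 and 68.3 CPM. Without it the log2 fold change of Pdlim1 was −0.91 (edgeR adjusted p = 0.051). None of the 3 ratios among the PDLIM genes passed, with differences of −0.15 (SE 0.29) for Pdlim1 over Pdlim5, 0.20 (SE 0.17) for Pdlim1 over Pdlim7 and 0.35 (SE 0.26) for Pdlim5 over Pdlim7. Their exact permutation p-values, unadjusted, were 0.613, 0.268 and 0.190.

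Tgfb1i1 encodes HIC-5, a paralog of the focal adhesion adaptor paxillin that shuttles to the nucleus (ENSMUSG00000030782, chromosome 7, 128246812 to 128255699, plus strand). Its levels were 89.6 ± 27.2 CPM in treated against 119 ± 28.1 CPM in control explants, which gave a log2 fold change of −0.41 (SE 0.20, 95% interval −0.82 to 0.00, edgeR adjusted p = 0.412). All 8 treated libraries lay below the control median of 129 CPM, but 3 controls, at 84.5 to 88.1 CPM, lay among them. Lpp, a zyxin relative of focal adhesions and cell contacts (ENSMUSG00000033306, chromosome 16, 24393507 to 24992578, plus strand), stood at 927 ± 161 and 1313 ± 379 CPM, with a log2 fold change of −0.50 (SE 0.16, 95% interval −0.85 to −0.16, edgeR adjusted p = 0.184). Its controls ranged from 746 CPM in control 6 to 2046 CPM in control 4, and its treated libraries were all under the control median. Lpp shares 82 exon bases with the antisense gene Lppos, and since no strand setting is given their reads cannot be told apart there. Lppos had 542 counts in all libraries together.

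**Figure D3:**
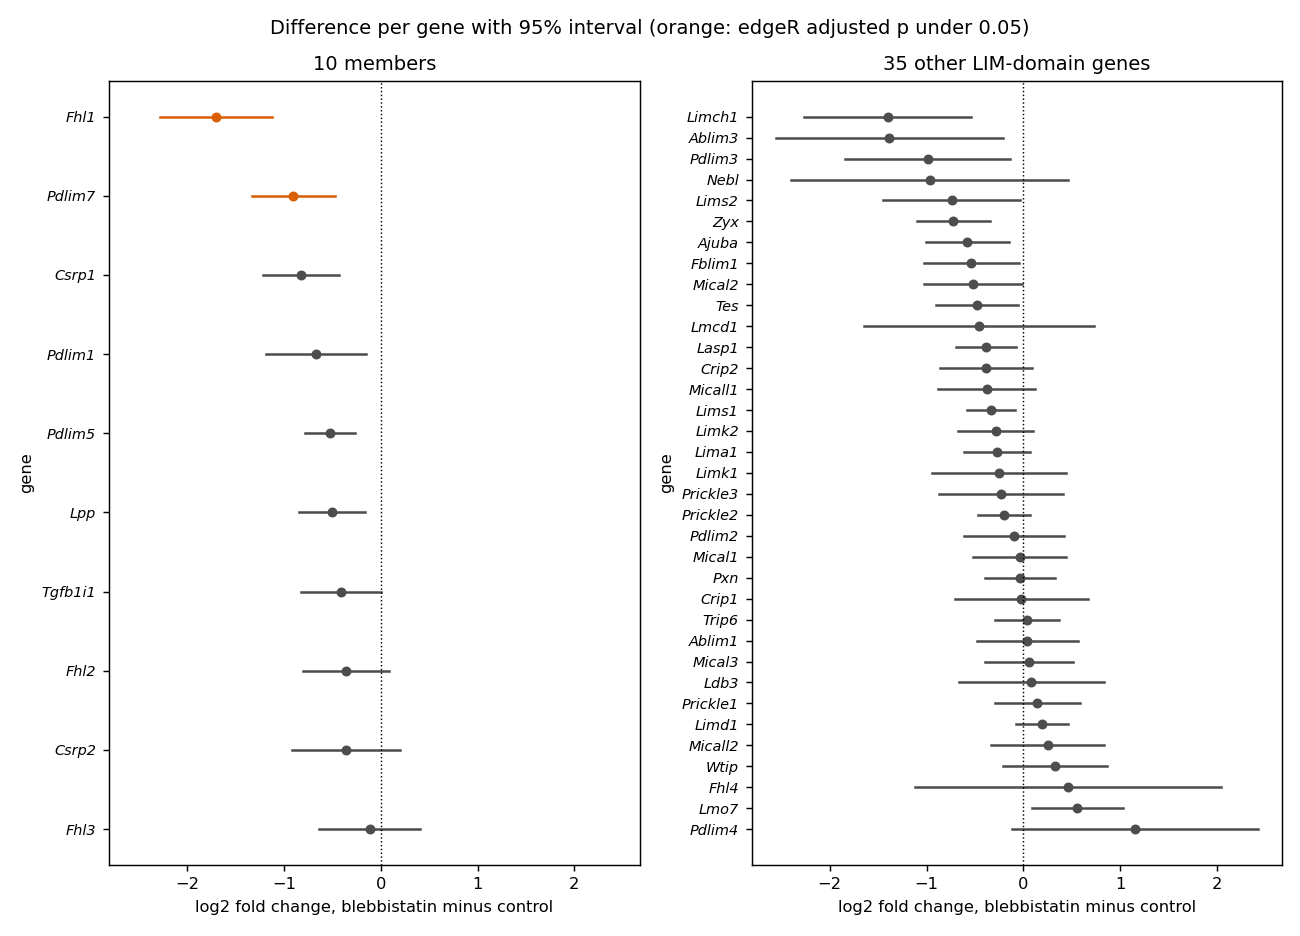
Log2 fold change (horizontal axis, blebbistatin minus control) with its 95% interval for the 10 members (left) and 35 other LIM-domain genes (right), in order of size, orange where the edgeR adjusted p is under 0.05. Fhl1 and Pdlim7 are orange on the left and no gene on the right is.

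Levels were compared between genes only per length, as CPM per kb of all annotated exons. In controls Csrp1 was the most abundant, at 221 ± 50.3 CPM per kb, above Lpp (59.5 ± 17.2) in 8 of 8 libraries with no overlap of their ranges. Lpp, Fhl1 (47.0 ± 14.4) and Pdlim5 (42.4 ± 6.13) had overlapping ranges. Pdlim5 lay above Tgfb1i1 (21.3 ± 5.03) in 8 of 8 libraries without overlap, and from there each gene overlapped with the next: Pdlim1 (19.6 ± 6.72), Pdlim7 (15.9 ± 4.99), Fhl2 (13.4 ± 4.12), Fhl3 (7.92 ± 1.66) and Csrp2 (4.24 ± 1.42). With blebbistatin Fhl1 (14.4 ± 6.77 CPM per kb) moved from rank 3 to rank 5, below Tgfb1i1 (16.1 ± 4.87) in 5 of 8 libraries, with overlapping ranges. Fhl2 (10.5 ± 2.74) ranked above Pdlim7 (8.52 ± 2.29) in 6 of 8 treated libraries, the reverse of the order of their means in controls. The annotated exons of Lpp add up to 22046 bases, which may exceed its main transcript, so that its level per kb depends on that length.

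**Figure D4:**
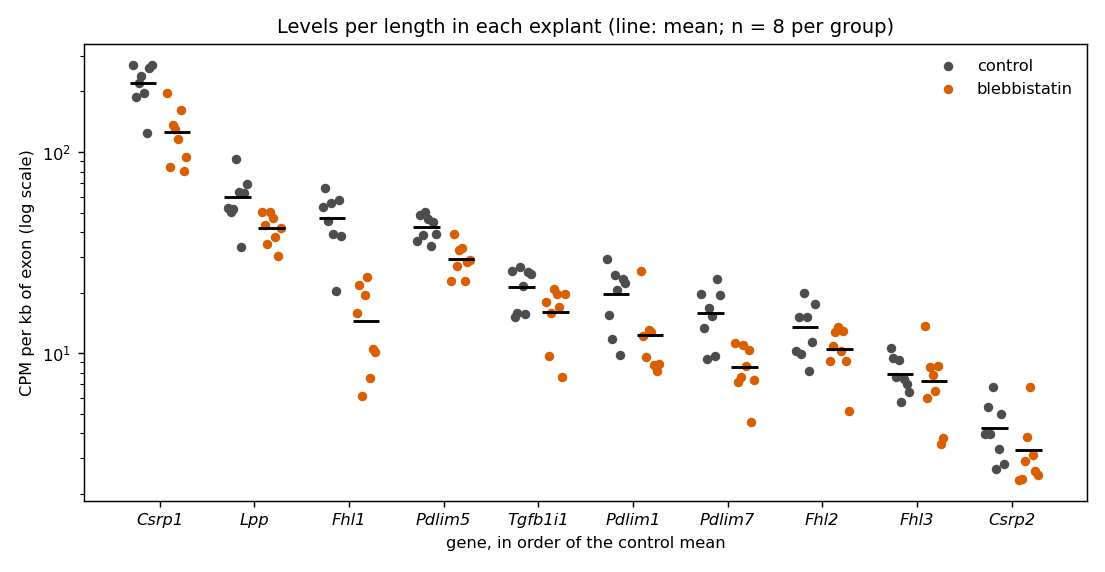
Level per length, in CPM per kb of annotated exon (vertical axis, log scale), of the 10 genes in order of their control mean, with 1 point per library and the mean as a line (n = 8 per group). Csrp1 stands above the rest in both groups, and Fhl1 has the largest step between the groups.

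Within each group the 10 genes were also set against each other across the 8 explants. Among the 45 pairs of members, Pearson's r of log2 CPM was positive for 42 pairs in controls (median 0.46) and for 37 with blebbistatin (median 0.32), where 49.9% and 49.8% of all pairs of tested genes were positive. Without the 2 libraries farthest from the median of the first gene of each pair, r was positive for 31 and 29 of the 45 pairs, with medians of 0.14 and 0.19. Leaving out extremes narrows the range of the first gene, which by itself tends to weaken r. The share over all pairs of tested genes was not computed in this way. The pairs share genes and libraries and are not independent. After adjustment over 90 relations 0 passed by Pearson's r, with 10 and 8 at an unadjusted exact permutation p under 0.05. By Spearman's rho 1 passed, Fhl3 with Csrp1 in the treated libraries (rho = 0.976, exact permutation p = 0.000397, adjusted 0.0357). For that pair Pearson's r was 0.915 (exact permutation p = 0.00171, adjusted 0.0952), and 0.793 without the 2 libraries farthest from the median of Fhl3. In controls the same pair had r = 0.13 (exact permutation p = 0.77, adjusted 0.933), r = −0.22 without 2 libraries and rho = 0.119 (exact permutation p = 0.793, adjusted 0.939). The difference between the groups was not tested. Control 6 was the lowest control for 6 of 10 members, control 4 the highest for 5, and blebbistatin 7 the lowest treated library for 6.

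Other LIM-domain proteins of actin and adhesions were counted from a list of 39 genes, of which 35 were tested. By edgeR 0 passed over all genes, with 11 lower and 1 higher with an unadjusted p under 0.05. Of all tested genes, 5.98% were lower and 6.21% higher at that level. Zyx and Limch1 were the 2 that DESeq2 called, both lower, and limma voom called 0. The log2 fold change was negative for 24 of 35, against 45.9% of all tested genes, and the median was −0.26. Zyx encodes zyxin, which moves to strained stress fibres and repairs them, and stood at 174 ± 39.0 CPM in treated against 288 ± 80.6 CPM in control explants (log2 fold change −0.73, SE 0.18, edgeR adjusted p = 0.0651). Limch1, for an activator of nonmuscle myosin II, stood at 3.67 ± 2.79 and 9.73 ± 4.52 CPM (−1.40, SE 0.41, edgeR adjusted p = 0.13). Ajuba, a zyxin relative that binds LATS kinases, had a log2 fold change of −0.58 (edgeR adjusted p = 0.225), and Lims1, for the integrin adaptor PINCH1, one of −0.33 (edgeR adjusted p = 0.237).

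Among cytoskeletal partners of these proteins, 21 were listed and 19 tested, and by edgeR 1 of them fell, 0 rose and 18 missed the threshold. The one that fell was Actn1, the alpha-actinin to which the CSRP, PDLIM and zyxin proteins bind, from 246 ± 42.3 to 134 ± 41.0 CPM (log2 fold change −0.88, SE 0.17, edgeR adjusted p = 0.0198). DESeq2 called 3 lower, among them Actn1 and the integrin gene Itgb1, and limma voom called Actn1. Itgb1 had a log2 fold change of −0.45 (edgeR adjusted p = 0.0673) and Flna, for filamin A, one of −0.36 (edgeR adjusted p = 0.191). Actn1 did not pass with the Y-linked covariate or without blebbistatin 1 and 8, and its adjusted p over all alternatives ran from 0.000188 to 0.528. The median of the list was −0.16.

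Nuclear partners were counted likewise. Of 16 tested, 0 passed by edgeR, DESeq2 or limma voom, and the median log2 fold change was −0.05. At an unadjusted edgeR p under 0.05, 1 was lower and 2 were higher, against 5.98% and 6.21% of all tested genes. The level of Srf was 41.4 ± 8.62 CPM in treated against 42.5 ± 14.5 CPM in control explants (log2 fold change −0.03, 95% interval −0.45 to 0.38, edgeR adjusted p = 0.96). The genes of its cofactors, Mrtfa and Mrtfb, had log2 fold changes of −0.25 (95% interval −0.59 to 0.10) and −0.02 (95% interval −0.25 to 0.22), with edgeR adjusted p-values of 0.596 and 0.97. Myocd, for the SRF cofactor myocardin of smooth and cardiac muscle, was near 1 CPM, at 0.654 ± 0.634 and 1.39 ± 0.754 CPM (edgeR adjusted p = 0.521). Rbpj, the DNA-binding factor of Notch signalling that an FHL1 isoform binds, had a log2 fold change of −0.31 (edgeR adjusted p = 0.197). The values were 0.23 for Yap1, a cofactor of TEAD factors (edgeR adjusted p = 0.268), 0.35 for the FHL2 partner Foxo1 (edgeR adjusted p = 0.337) and −0.23 for the TGF-beta effector Smad2 (edgeR adjusted p = 0.477).

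Several of the 10 genes are also abundant in muscle, so the levels of muscle markers stand beside them. Of 10 smooth muscle and pericyte markers 8 were measured, and their summed level was 157 to 375 CPM with blebbistatin and 232 to 552 CPM in controls (p = 0.00528 by an exact permutation test, 0.0238 adjusted over 9 measures). Desmin (Des) and Cspg4 held most of this sum, while the defining gene Myh11 averaged 0.626 and 1.42 CPM and Cnn1 1.63 and 5.11 CPM. Lmod1 and Notch3 also had lower means with blebbistatin. Smtn, the next in level after Des and Cspg4, averaged 45.9 and 46.8 CPM, and Abcc9 was higher with blebbistatin, at 1.155 and 0.718 CPM. By edgeR no single marker of this list passed, and Des had the smallest adjusted p, 0.163. Of 9 cardiac muscle markers 6 were measured, with a summed level of 625 to 1173 CPM with blebbistatin and 403 to 978 CPM in controls (p = 0.0103 by an exact permutation test, 0.0308 adjusted). Most of it was Tnnt2, whereas Myh6 averaged 1.74 and 0.91 CPM and was at 0 in 4 libraries, as was Actc1. Sums for endothelium (5 of 8 markers), macrophages (8 of 8) and fibroblasts (7 of 7) did not pass, with adjusted exact permutation p-values of 0.531, 0.858 and 0.858. Flt1 and Tek held most of the endothelial sum, Lyz2 of the macrophage sum, and Col1a1, Col1a2 and Dcn of the fibroblast sum. Macrophage markers differed in direction. Lyz2 averaged 714 CPM with blebbistatin and 988 CPM in controls, and C1qa was also lower with blebbistatin. Adgre1, Csf1r, Cd68, Ptprc, Fcgr1 and Mrc1 had higher means with blebbistatin, and edgeR called none of the macrophage markers it tested. Smaller fibroblast markers differed in sign: log2 fold changes were 0.82 for Pdgfra, with 8 of 8 treated libraries above the control median (edgeR adjusted p = 0.0555), and 0.80 for Lum (edgeR adjusted p = 0.237). They were −1.21 for Postn and −0.72 for Thy1 (edgeR adjusted p = 0.35 and 0.295). Among the epicardial markers, all 8 treated libraries lay below the control median for Krt19 and Tbx18. Their log2 fold changes were −1.33 and −0.68 (edgeR adjusted p = 0.0593 and 0.0794). Msln had −0.78 (edgeR adjusted p = 0.22), and only Tcf21 of that list had a positive value (0.14). These 4 fibroblast markers and these epicardial markers were named after their values were seen. Mitochondrial genes took 21.4 ± 3.21% of the counts in treated against 16.4 ± 1.70% in control libraries (p = 0.00326 by an exact permutation test, adjusted 0.0238), and without them Fhl1 had a log2 fold change of −1.70 (edgeR adjusted p = 0.00695). With a macrophage covariate it was −1.79 (edgeR adjusted p = 0.000989). The part of the epicardial, smooth muscle, cardiac and fibroblast markers in these results was not tested.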

How the data were processed

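RNA came from a column extraction, was amplified with an Ovation kit and then went into Nextera XT libraries, per the labels' protocols. The authors deposited raw read counts per gene, 1 column per explant. The submitters' processing notes name HTSeq 0.6.1p1, SAMtools 1.3, edgeR, Bowtie2 2.2.6.0 and TopHat2 2.1.0, and the build mm10 (GRCm38). The sources used here do not give their roles, the annotation or the strand setting.

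Counts were scaled by TMM and filtered with filterByExpr, which left 15675 of 15805 genes. Groups were compared with the quasi-likelihood test of edgeR 4.0.16 under R 4.3.3, in its robust form, with group as the only term and a threshold of 0.05. DESeq2 1.42.0 and limma 3.58.1 (voom) were alternatives. Levels are given in TMM-scaled CPM (mean ± SD), log2 CPM used a prior count of 2, and marker sums are CPM of total counts. Intervals of fold changes are edgeR's estimate and SE with the degrees of freedom of its test. Positions and exon lengths are from GENCODE M21 (GRCm38). On counts simulated from these libraries over 15609 genes, the test recovered 65 of 100 genes with a 2-fold change and 99 of 100 with a 4-fold change, and 5.75% of calls were false. The changed genes were drawn without the genes of lowest mean CPM, so the recovery does not cover those. Each gene was simulated independently and without sex differences, so the share of false calls may differ in the real libraries.

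The members and lists were chosen with earlier results of these data known. The genes named were the 10 members, Srf, Mrtfa, Mrtfb and Myocd, the called genes and the 4 of smallest p of each partner list, and markers that decide a sum. A gene under this rule is not reported here. The splits by Ddx3y were chosen after seeing the data. Other alternatives were other scalings, no filter, a replicate block, covariates for Y chromosome and macrophage genes, no mitochondrial genes, and leaving out blebbistatin 1 and 8 or each library in turn.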

Additional observations from a re-analysis of the deposited data

Results flagged for a closer look

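In the groups of 8, a library was flagged where its gap to the nearest other as a share of the range of its group exceeded Dixon's 95% critical value. This was so 6 times among 34 groups of member levels and ratios, where chance flags about 1 in 20 independent groups. The ratios are built from the same levels, so these groups are not independent and the flags cannot be set directly against that rate. Control 6 was the lowest control in Fhl1 (log2 CPM 6.25, the next 7.15) and in the log2 ratio of Fhl1 to Fhl3 (2.59, the next 3.47). Blebbistatin 1 was the highest treated library in Pdlim1 (log2 CPM 7.07, the next 6.09) and in the log2 ratio of Pdlim1 to Pdlim5 (−0.59, the next −2.09). Blebbistatin 8 was the lowest in Fhl2 (log2 CPM 3.30, the next 4.12), and blebbistatin 5 the highest in Csrp2 (log2 CPM 3.89, the next 3.07).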

How the results depend on the processing

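Of the 10 members 2 were called lower. That count was 1 with upper-quartile scaling, without the filter and with the Y-linked covariate, 4 with DESeq2, limma voom and the macrophage covariate, 0 within the libraries with Ddx3y above 10 CPM and 0 within the others, and 1 to 4 as each library was left out (4 without control 6, 3 without blebbistatin 1). The call of Fhl1 ended only within these 2 splits. For all genes the count was 95, and 424 with DESeq2, 177 with the replicate block, 21 with the Y-linked and 259 with the macrophage covariate, 2 and 0 within the splits and 44 to 206 leaving out single libraries: 180 without blebbistatin 5, 49 and 62 without blebbistatin 6 and 8, and 60, 58, 52, 206, 44 and 54 without controls 1, 2, 4, 6, 7 and 8. The other LIM-domain genes had 0 calls, and 2 with DESeq2, 1 with the replicate block, 1 with the macrophage covariate, 1 without blebbistatin 1 and 8, and 0 to 1 leaving out single libraries (1 without blebbistatin 2 or control 6). The cytoskeletal partners had 1, and 3 with DESeq2, the replicate block and the macrophage covariate, 0 with the Y-linked covariate, without blebbistatin 1 and 8 and within either split, and 1 to 2 leaving out single libraries (2 without blebbistatin 5 or control 6). The splits hold fewer samples than the other fits, and the cause of these changes in count was not tested. Replicate numbers shared by the groups pair nothing in the labels, so the block is given here only. Same-numbered libraries correlated at 0.0039 to 0.279 after centring within groups. For blebbistatin 1 and 6 the control of the same number was the best match. Whether the numbers pair explants was not tested and is not settled by these values. The block called Fhl1 and Pdlim5 (edgeR adjusted p = 0.00526 and 0.0124) but not Pdlim7 (0.0902). The log2 fold change turned positive for Fhl3 (0.13) and Mrtfa (0.087) with Ddx3y above 10 CPM and for Csrp2 (0.11) at or below it. For Mrtfb it was 0.0049 with upper-quartile scaling and 0.024 with Ddx3y above 10 CPM, and −0.10 to 0.019 leaving out single libraries. For Srf it was 0.022 with limma voom, 0.017 with the replicate block, 0.13 with the Y-linked covariate, 0.21 and 0.020 within the splits, and −0.13 to 0.057 leaving out single libraries. The ratio difference of Fhl2 to Fhl3 ran from −0.25 to 0.023. Those of Fhl1 to Fhl2 and to Fhl3 passed in all 17 alternatives run. Depth limits what can be said of genes near or under 1 CPM, such as Myocd and Myh11.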
